A study of Mus musculus with 6 samples.

Results

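The SLC25 carriers are a family of transport proteins, most of them set in the inner mitochondrial membrane. Their members here are the genes whose name in the deposited table is SLC25A followed by a number, which gave 47 of 48321 gene names. All 47 are protein-coding mouse genes in the GENCODE M21 annotation. RNA was sequenced from pancreatic islets of C57BL6 mice, titled WT, with 3 samples from mice on a high-fat diet and 3 from mice on normal chow. The high-fat diet drew 60% of its calories from fat and was started at 3 months of age and lasted 4 months. No age is given for the chow mice, whose samples carry the same treatment note as the others. Islet RNA was extracted with Trizol, with no sorting of cells stated, and no label ties a sample to its own animal. P-values therefore speak to the spread among these samples alone, part of which may be technical.

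Each SLC25 protein moves a small molecule, such as a nucleotide, an organic acid, an amino acid or a cofactor, across a membrane that is otherwise closed to it. In beta-cells, ATP leaving the mitochondria closes potassium channels and starts insulin release, and carriers of aspartate, malate, citrate and glutamate link glucose breakdown in the cytosol to the mitochondrial citric acid cycle. Beta-cells are known for low lactate dehydrogenase and for a strong reliance on such shuttles to pass reducing power into mitochondria.

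The libraries differed in ways other than diet, and these bear on every comparison. Chow replicate 2 was, in 48321 of 48321 names, the mean of the other chow columns, so the tests used 3 high-fat and 2 chow libraries. The implied depth was 23.5 to 35.1 M reads in high-fat libraries and 18.8 and 24.7 M reads in chow libraries, so 3 reads were worth 0.0856 to 0.16 CPM (read counts scaled to library depth), which covers counting error only. Rn7sk, a small RNA without a poly(A) tail, stood at 3190 to 3930 CPM in high-fat libraries and 6.27 and 13.3 CPM in chow libraries, so a difference in library type and one in diet cannot be told apart. The islet hormone genes Ins1 and Ins2 made up 7.41% to 9.34% of the summed CPM in high-fat libraries, against 5.5% and 9.62% in chow libraries. All 29 markers of acinar cells, the enzyme-secreting cells around islets, were found, and none was at 0. Together they took 11.8%, 1.59% and 4.71% in high-fat replicates 1, 2 and 3, against 27.5% and 10.6% in chow replicates 1 and 3. The 8 duct markers summed to 0.0284% to 0.0295% in high-fat libraries and 0.0424% and 0.0433% in chow libraries, and the 9 stromal markers to 0.0158% to 0.0216% against 0.0398% and 0.042%. The 7 endothelial markers summed to 0.0308% to 0.0437% in high-fat libraries and 0.045% and 0.066% in chow libraries, the 6 adipocyte markers to 0.000811% to 0.00113% against 0.00214% and 0.00257%, and the 8 immune markers, which overlapped, to 0.00333% to 0.0048% against 0.00479% and 0.00533%. In bulk islets, fewer cells of a type and less RNA per cell cannot be told apart.

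The family as a whole stood at a like level on both diets, and a few members moved in each direction. The 47 members summed to 1187, 1208.2 and 1177.5 CPM in high-fat replicates 1, 2 and 3, against 1126 and 1098.5 CPM in chow replicates 1 and 3. The high-fat sums lay above both chow sums. As a share of the summed CPM of all genes the order did not hold, with 0.123%, 0.145% and 0.134% in high-fat libraries and 0.134% and 0.163% in chow libraries. Of the 47 members, 37 reached a mean of 0.5 CPM and were tested, with limma on log2(CPM + 1) across all 16939 genes that reached that mean. At a Benjamini-Hochberg adjusted p below 0.05, 5 members were higher on the high-fat diet (Slc25a38, Slc25a25, Slc25a44, Slc25a51 and Slc25a12) and 3 were lower (Slc25a35, Slc25a24 and Slc25a23). These are 13.5% and 8.11% of the tested members, beside 14.9% of all tested genes called higher and 8.78% called lower, so members were called about as often as tested genes in general. The median log2 fold change was 0.08 over the tested members and 0.05 over all tested genes. In 25 of the 37 tested members (67.6%) every library of one diet lay above every library of the other, the high-fat libraries being the higher ones in 16 (43.2%) and the lower ones in 9 (24.3%), against 55.4% (32.8% higher, 22.5% lower) of all tested genes. Calls in either direction took in 21.6% of the tested members and 23.7% of all tested genes.

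**Figure D1:**
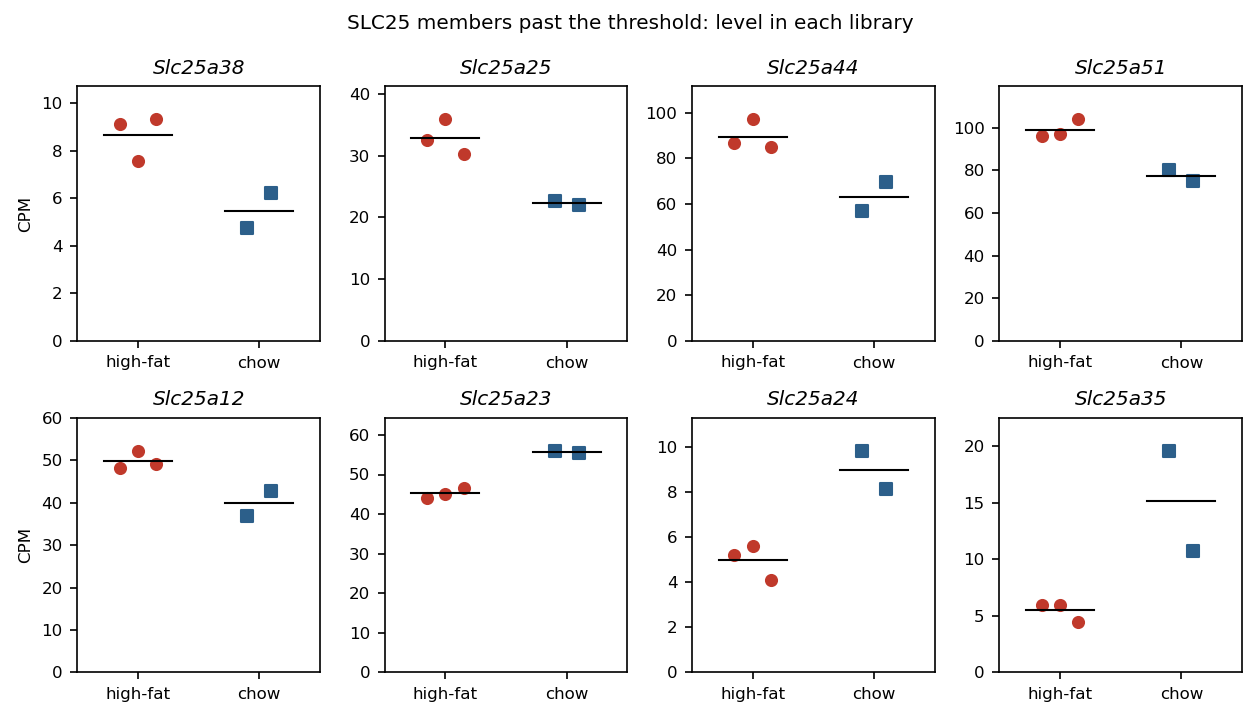
CPM of the 8 members past the threshold in each library, with high-fat libraries as red circles, chow libraries as blue squares and group means as black lines. The diets do not overlap in any panel, and the chow libraries of Slc25a35 lie apart, at 19.6 and 10.7 CPM.

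The direction of these calls depended in part on how libraries were scaled. A scaling by a library size that omits acinar markers and insulin genes, called acinar- and insulin-free scaling here, moved the median log2 fold change of all tested genes to -0.34. The summed CPM of all genes was 963615, 832416.3 and 879301.3 in high-fat libraries and 841705.3 and 674481.6 in chow libraries. That scaling also takes in this difference, and its part in the shift was not tested. Under that scaling 0 members were called higher and 16 lower, where 4.75% of all tested genes were called higher, 40.8% lower and 45.5% either way. There the fold changes of Slc25a12 and Slc25a51 turned to -0.14 and -0.11, those of Slc25a44, Slc25a25 and Slc25a38 were 0.04, 0.09 and 0.18, and the 3 fallers stayed below 0. Besides those 3, the members called lower there were Slc25a3, Slc25a4, Slc25a10, Slc25a13, Slc25a16, Slc25a17, Slc25a20, Slc25a27, Slc25a36, Slc25a39, Slc25a40, Slc25a46 and Slc25a53. Relative to the median of all genes, Slc25a51 stood at 0.30 with the deposited CPM and 0.23 in that scaling, and Slc25a12 at 0.26 and 0.20. With the acinar score (the mean log2 level of the acinar markers) as a covariate, 0 members passed in limma in either direction. At an unadjusted p below 0.05, 5 members were higher and 3 lower, beside 2836 higher and 2101 lower of all 16939 tested genes. Slc25a12 was not among these 5 (adjusted p = 0.236), while Slc25a5 was (0.139). Fold changes in that fit are given for the 8 members called with the deposited CPM. The risers stood at 0.61 for Slc25a38, 0.48 for Slc25a25, 0.37 for Slc25a44, 0.37 for Slc25a51 and 0.22 for Slc25a12. The fallers stood at -0.31 for Slc25a23, -0.74 for Slc25a24 and -1.09 for Slc25a35. In that fit 10.6% of all tested genes were called (6.49% higher, 4.09% lower), against 23.7% without the covariate.

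**Figure D2:**
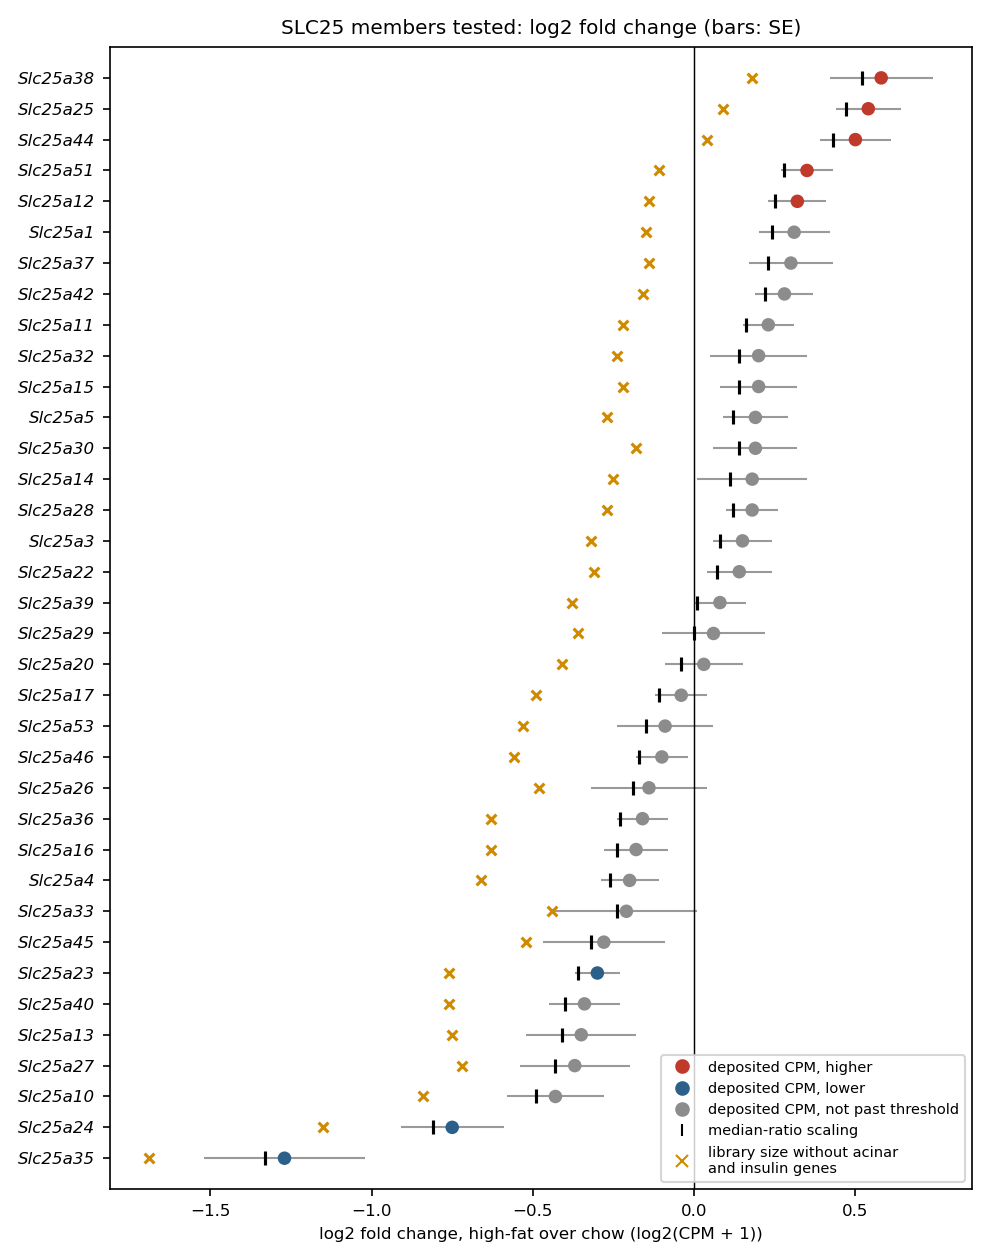
Log2 fold change (high-fat over chow) of 36 tested members. Points are the deposited CPM with SE bars (red higher, blue lower, grey not past the threshold), black ticks median-ratio scaling and orange crosses acinar- and insulin-free scaling, in which all members shift to the left and, of the 8 called members, Slc25a12 and Slc25a51 cross 0.

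Levels can be compared between members only per length of transcript. In CPM per kb of exonic length, the 5 highest members were the same on both diets. The ADP/ATP carrier Slc25a5 stood at 73.7 in high-fat libraries and 64.5 in chow libraries, the phosphate carrier Slc25a3 at 71.7 and 64.8, and the glutathione carrier Slc25a39 at 58.1 and 54.9. The ADP/ATP carrier Slc25a4 followed at 39.2 and 44.9 and the citrate carrier Slc25a1 at 35.0 and 28.2. The family thus spanned a wide range of levels, since 10 members averaged under 0.5 CPM. The 8 members with the highest CPM (Slc25a3, Slc25a51, Slc25a39, Slc25a5, Slc25a36, Slc25a4, Slc25a44 and Slc25a1) made up 61.3% to 61.5% of the family's CPM in high-fat libraries and 59.4% and 59.6% in chow libraries.

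**Figure D3:**
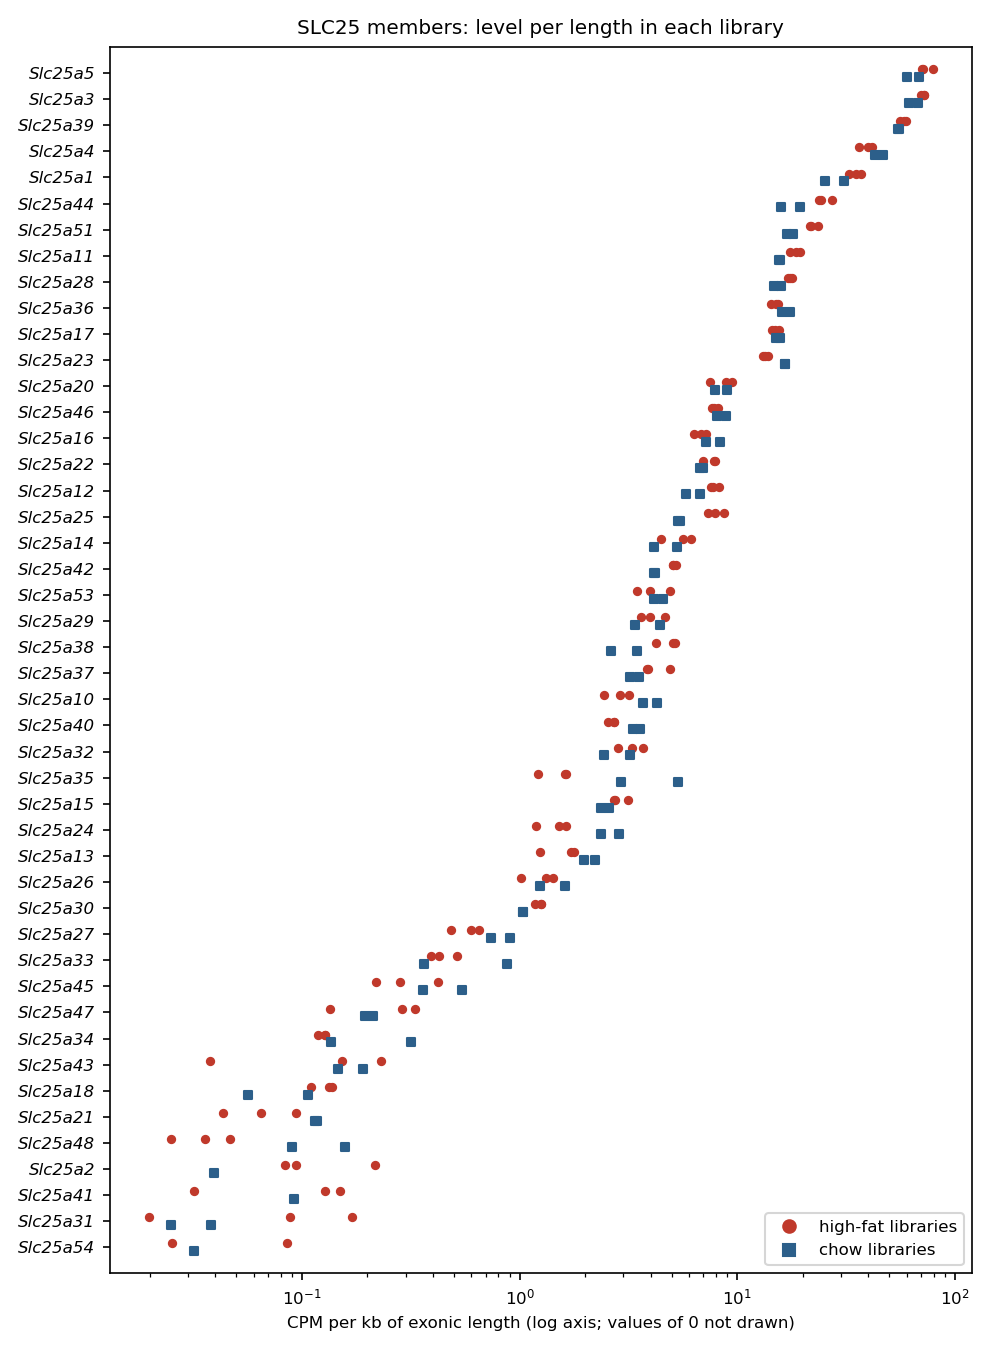
Level of 46 members in CPM per kb of exonic length, on a log axis, in the high-fat libraries (red circles) and the chow libraries (blue squares). Slc25a5, Slc25a3 and Slc25a39 lead on both diets, the members that were not tested sit at the bottom, and values of 0 are not drawn.

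Among the carriers of ADP, ATP and phosphate, the calcium-regulated ATP-Mg/phosphate carriers moved in opposite directions. These 3 carriers, Slc25a23, Slc25a24 and Slc25a25, load and unload the mitochondrial pool of adenine nucleotides when cytosolic calcium rises. Slc25a25 was at 32.5, 35.9 and 30.3 CPM in high-fat replicates 1, 2 and 3, against 22.6 and 22 CPM in chow replicates 1 and 3. All high-fat libraries lay above both chow libraries, and Slc25a25 rose by 0.54 ± 0.10 on the log2 scale (SE; adjusted p = 0.0105). Slc25a24 was at 5.19, 5.6 and 4.09 CPM in high-fat libraries, against 9.82 and 8.12 CPM in chow libraries. It fell by 0.75 ± 0.16 (adjusted p = 0.0199), without overlap. Slc25a23, the most abundant of the 3, was at 44, 45.2 and 46.5 CPM in high-fat libraries, against 56 and 55.5 CPM in chow libraries. It fell by 0.30 ± 0.07 (adjusted p = 0.0309), with little spread inside either diet.

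Slc25a25 kept its call whichever library was left out (adjusted p 0.0233 to 0.0414), and its adjusted p over 17 alternatives ran from 0.00156 to 0.566. Slc25a24 lost its call without high-fat replicate 3 (adjusted p = 0.0554) and without chow replicate 1 (0.101), in a range of 0.00175 to 0.101. Slc25a23 lost it without high-fat replicate 1 (0.102), 2 (0.1) or 3 (0.0788) and without chow replicate 1 (0.077), in a range of 0.00105 to 0.111. In the fold changes of Slc25a24 and Slc25a23 no alternative turned the sign. The lowest adjusted p of Slc25a25 came from the fit of all 6 columns, where the averaged chow column counts as a library. So did those given below for Slc25a51, Slc25a44, Slc25a38, Slc25a12 and Mcu. That column repeats the other chow libraries, so p-values in that fit are too small. The lower Slc25a24 stands beside the lower duct, stromal, endothelial and adipocyte marker shares of the high-fat libraries, whose part in it was not tested. With the acinar score as a covariate its fold change was -0.74 (adjusted p = 0.0752). Slc25a25 overlaps Naif1 on the opposite strand, and 4.41% of its 31-base words also occur in that gene. Naif1 was at 5.34, 6.78 and 8.37 CPM in high-fat libraries and 3.5 and 5.49 CPM in chow libraries, and the sources used here do not say if reads were assigned by strand.

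The promoter windows of these 3 carriers are shown because the genes are close relatives that moved in different directions. The windows are RefSeq sequences of GRCm38.p6, from 250 bases before to 50 after an annotated start, written along the strand of the gene. The 3 annotated starts of Slc25a25, all on the minus strand, have the windows chr2:32424017-32424316 (A), chr2:32431102-32431401 (B) and chr2:32451421-32451720 (C). Slc25a24 has 1 window, chr3:109122899-109123198 on the plus strand, and 1 of the 2 windows of Slc25a23 is shown, chr17:57059793-57060092 on the minus strand. Capitals mark matches, on either strand, to the letters TGACGTCA (the cAMP response element, CRE), GGGCGG (the GC box bound by Sp1), or CCAAT, the box bound by NF-Y. These motifs do not overlap in the windows shown.
Slc25a25 window A: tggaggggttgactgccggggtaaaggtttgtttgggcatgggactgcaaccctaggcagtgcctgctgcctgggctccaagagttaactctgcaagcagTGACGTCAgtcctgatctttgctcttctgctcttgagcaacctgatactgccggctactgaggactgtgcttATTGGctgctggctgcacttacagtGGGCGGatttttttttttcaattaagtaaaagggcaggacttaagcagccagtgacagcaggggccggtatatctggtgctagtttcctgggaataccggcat
Slc25a25 window B: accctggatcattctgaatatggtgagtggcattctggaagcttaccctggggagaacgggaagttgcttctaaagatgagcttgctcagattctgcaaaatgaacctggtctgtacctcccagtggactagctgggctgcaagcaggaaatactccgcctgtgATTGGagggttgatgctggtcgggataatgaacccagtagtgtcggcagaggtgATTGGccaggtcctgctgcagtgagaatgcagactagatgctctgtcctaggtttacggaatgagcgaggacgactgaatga
Slc25a25 window C: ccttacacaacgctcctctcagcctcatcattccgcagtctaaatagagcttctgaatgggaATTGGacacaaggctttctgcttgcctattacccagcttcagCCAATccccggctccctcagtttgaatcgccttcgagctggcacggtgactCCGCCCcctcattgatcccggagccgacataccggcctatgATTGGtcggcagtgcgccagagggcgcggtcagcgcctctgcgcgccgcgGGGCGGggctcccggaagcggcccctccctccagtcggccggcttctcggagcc
Slc25a24: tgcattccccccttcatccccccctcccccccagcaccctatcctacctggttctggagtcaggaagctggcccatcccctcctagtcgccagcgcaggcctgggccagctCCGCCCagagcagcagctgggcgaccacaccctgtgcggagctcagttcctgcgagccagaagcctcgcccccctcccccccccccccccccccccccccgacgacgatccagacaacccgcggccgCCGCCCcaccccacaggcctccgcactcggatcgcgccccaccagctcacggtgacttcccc
Slc25a23: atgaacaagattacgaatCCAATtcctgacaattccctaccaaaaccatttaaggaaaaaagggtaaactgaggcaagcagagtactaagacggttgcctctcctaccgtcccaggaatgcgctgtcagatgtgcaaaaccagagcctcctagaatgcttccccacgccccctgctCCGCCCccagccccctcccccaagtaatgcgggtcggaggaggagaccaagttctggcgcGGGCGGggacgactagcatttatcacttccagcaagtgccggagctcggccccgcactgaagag

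Window A of Slc25a25 held a CRE whose first base lies 150 bases before the start, and the letters occur in 1.79% of all 32851 RefSeq windows. Slc25a36 holds the other of the 2 member windows with a CRE (4.35% of 46). Windows B and C of Slc25a25 and those shown of Slc25a24 and Slc25a23 did not hold those letters. GC boxes were found in windows A and C of Slc25a25, in that of Slc25a24 and in that of Slc25a23. Of the 46 windows of 36 members, 82.6% held a GC box, against 35.7% of all windows, and 47.8% held a CCAAT box, against 37.4%. A match describes these letters and shows no binding, and the table does not resolve which start was used.

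The abundant carriers of this role differed by less. Slc25a3, which brings phosphate into the matrix for ATP synthesis, was at 141, 141 and 136 CPM in high-fat libraries, against 132 and 120 CPM in chow libraries (log2 fold change 0.15 ± 0.09, adjusted p = 0.247). The high-fat libraries lay just above the chow libraries. The ADP/ATP exchangers Slc25a4 and Slc25a5 pointed in opposite directions. Slc25a4 was at 76.7, 79.9 and 69.6 CPM in high-fat libraries and 90.1 and 82.7 CPM in chow libraries (-0.20 ± 0.09, adjusted p = 0.166). Slc25a5 was at 98.2, 88.5 and 87.3 CPM in high-fat libraries and 84.8 and 75.1 CPM in chow libraries (0.19 ± 0.10, adjusted p = 0.187). Neither pair of groups overlapped and neither gene passed the threshold. For Slc25a5, 49.4% of the 31-base words also occur in other annotated genes, so its level is uncertain. Gm5560, which shares the most of them (30.4%), was at 6.35, 9.29 and 7.94 CPM in high-fat libraries and 13.8 and 10.3 CPM in chow libraries. Slc25a31 and Slc25a41, the remaining members of this role, were not tested.

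Of the 8 nucleotide and cofactor carriers, all of them tested, Slc25a51 passed the threshold and rose. Slc25a51 carries NAD into mitochondria. It was at 96.1, 97.2 and 104 CPM in high-fat libraries, against 80.1 and 75 CPM in chow libraries. Every high-fat library lay above both chow libraries, with a log2 fold change of 0.35 ± 0.08 (adjusted p = 0.0251) that turned to -0.11 under acinar- and insulin-free scaling. The call ended without high-fat replicate 1 (0.0665), 2 (0.0779) or 3 (0.0898) and without chow replicate 3 (0.0519), and over 17 alternatives the adjusted p ran from 0.00332 to 0.37. Slc25a36, a pyrimidine nucleotide carrier among the 8 highest members, was at 76.2, 82 and 79.9 CPM in high-fat libraries and 93 and 84.9 CPM in chow libraries (-0.16 ± 0.08, adjusted p = 0.198). Its groups did not overlap. Slc25a42, a coenzyme A carrier, was at 16.7, 16.2 and 16.2 CPM in high-fat libraries and 13.4 and 13.2 CPM in chow libraries (0.28 ± 0.09, adjusted p = 0.0619). Slc25a16, Slc25a17, Slc25a32 and Slc25a33 had fold changes between -0.21 and 0.20, with overlapping groups.

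None of the carriers of citrate and other organic acids passed the threshold in limma, though 3 of 3 tested had groups that did not overlap and each had an unadjusted p below 0.05. Over all 16939 tested genes 55.4% did not overlap, and 4032 were higher and 2544 lower at that unadjusted p. Slc25a1, which exports citrate for lipid synthesis, was at 54.5, 61.9 and 58.7 CPM in high-fat libraries, against 42.4 and 51.5 CPM in chow libraries (0.31 ± 0.11, adjusted p = 0.0768). Slc25a11, the oxoglutarate carrier of the malate-aspartate shuttle, was at 31.8, 33.1 and 29.8 CPM in high-fat libraries, against 26.5 and 27 CPM in chow libraries (0.23 ± 0.08, adjusted p = 0.0912). Slc25a10, the dicarboxylate carrier, lay the other way. It was at 6.45, 4.92 and 5.83 CPM in high-fat libraries and 8.66 and 7.45 CPM in chow libraries (-0.43 ± 0.15, adjusted p = 0.0778). Slc25a1 passed without chow replicate 3 (0.0232), in a leave-one-out range of 0.0232 to 0.294, and the fold changes of Slc25a1 and Slc25a11 turned to -0.15 and -0.22 under acinar- and insulin-free scaling. Slc25a10 passed in that scaling (-0.84, adjusted p = 0.00357).

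Among the 10 amino acid carriers, of which 8 were tested, 3 rose and 0 fell, beside 14.9% of all tested genes called higher and 8.78% lower. Slc25a44, a carrier of branched-chain amino acids, was at 86.8, 97.2 and 84.9 CPM in high-fat libraries, against 57.1 and 69.5 CPM in chow libraries. All high-fat libraries exceeded both chow libraries (0.50 ± 0.11, adjusted p = 0.0213). Slc25a38, which brings glycine in for heme synthesis, was at 9.11, 7.56 and 9.32 CPM in high-fat libraries and 4.73 and 6.2 CPM in chow libraries. This was the steepest rise among the tested members on the log2(CPM + 1) scale, at 0.58 ± 0.16 (adjusted p = 0.0367). Slc25a12, the calcium-activated aspartate/glutamate carrier aralar of the malate-aspartate shuttle, was at 48.2, 52.3 and 49.1 CPM in high-fat libraries and 37 and 42.8 CPM in chow libraries. It passed narrowly, at 0.32 ± 0.09 (adjusted p = 0.0482), and turned to -0.14 under acinar- and insulin-free scaling.

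These 3 calls held with 1 of the 5 libraries left out, chow replicate 3 (adjusted p = 0.00939 for Slc25a44, 0.0267 for Slc25a38 and 0.0212 for Slc25a12). Slc25a44 lost its call without high-fat replicate 1 (0.0578), 2 (0.0749) or 3 (0.0531) and without chow replicate 1 (0.0749), with alternatives from 0.00477 to 0.84. Slc25a38 lost it without the same libraries (0.1, 0.0585, 0.113 and 0.161, in that order), with alternatives from 0.00844 to 0.406. Slc25a12 lost it likewise (0.0975, 0.149, 0.117 and 0.172), with alternatives from 0.0104 to 0.349, and also under median-ratio scaling (0.0626). All 3 genes were lowest in chow replicate 1, which had the highest acinar share. High-fat replicate 1 had a larger acinar share than chow replicate 3 (11.8% against 10.6%), and all 3 genes were higher there than in chow replicate 3. The part of acinar cells in these values was not tested. The fold changes of these 3 genes with the acinar covariate, given above, were 0.61 for Slc25a38, 0.37 for Slc25a44 and 0.22 for Slc25a12. None of the 3 passed in that limma fit (adjusted p = 0.105, 0.0958 and 0.236, in that order).

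The second aspartate/glutamate carrier, Slc25a13 (citrin), was at 5.57, 5.39 and 3.87 CPM in high-fat libraries and 6.92 and 6.16 CPM in chow libraries (-0.35 ± 0.17, adjusted p = 0.176). Its fold change lay on the other side of 0 from that of Slc25a12. The glutamate carrier Slc25a22 was at 20.1, 22.7 and 22.9 CPM in high-fat libraries and 19.4 and 20.2 CPM in chow libraries (0.14 ± 0.10, adjusted p = 0.327), with overlapping groups. Slc25a15 (ornithine), Slc25a26 (S-adenosylmethionine) and Slc25a29 (basic amino acids) had fold changes of 0.20, -0.14 and 0.06 and did not pass.

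The carnitine, iron and glutathione carriers gave no call with the deposited CPM, while Slc25a20 (-0.41, adjusted p = 0.0371) and Slc25a39 (-0.38, adjusted p = 0.0146) turned sign and were called lower under acinar- and insulin-free scaling. Slc25a20, which carries acylcarnitines in for fatty acid oxidation, was at 15.9, 16.8 and 13.4 CPM in high-fat libraries and 16 and 14.1 CPM in chow libraries. Its groups overlapped and its log2 fold change was 0.03 ± 0.12 (adjusted p = 0.893). The mitoferrins bring iron in. Slc25a28 was at 26.7, 26.4 and 27.4 CPM in high-fat libraries and 24.5 and 22.6 CPM in chow libraries (0.18 ± 0.08, adjusted p = 0.155). Slc25a37 was at 16.1, 16.3 and 20.5 CPM in high-fat libraries and 14.7 and 13.4 CPM in chow libraries (0.30 ± 0.13, adjusted p = 0.136). In both mitoferrins the high-fat libraries lay above the chow libraries. Slc25a39, a glutathione carrier, was at 97.9, 94.8 and 101 CPM in high-fat libraries and 91.9 and 93.1 CPM in chow libraries (0.08 ± 0.08, adjusted p = 0.475). Its relative Slc25a40 was at 7.56, 7.06 and 7.59 CPM in high-fat libraries and 9.23 and 10 CPM in chow libraries (-0.34 ± 0.11, adjusted p = 0.0723). Slc25a40 passed under median-ratio scaling (-0.40, adjusted p = 0.04) and, under acinar- and insulin-free scaling, at 0.0033.

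The uncoupling-protein-like members Slc25a14, Slc25a27 and Slc25a30 had fold changes of 0.18, -0.37 and 0.19, and none passed in limma, adjusted or at an unadjusted p below 0.05. Slc25a30 was at 4.22, 4.5 and 4.51 CPM in high-fat libraries and 3.72 and 3.73 CPM in chow libraries, without overlap. Slc25a27 was at 1.9, 2.56 and 2.35 CPM in high-fat libraries and 3.56 and 2.9 CPM in chow libraries, also without overlap.

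Slc25a35, a member whose cargo is not established, had the largest log2(CPM + 1) fold change of the 37 tested members. It was at 5.99, 5.97 and 4.49 CPM in high-fat libraries, against 19.6 and 10.7 CPM in chow libraries. The high-fat libraries lay close together and the chow libraries far apart, and the log2 fold change was -1.27 ± 0.25 (adjusted p = 0.0137). The call held with each library left out (adjusted p 0.00348 to 0.0484), while the fold change without chow replicate 1 was -0.86. It ended with no filter (0.0683) and with the acinar covariate (-1.09, 0.0634), in a range of 0.00146 to 0.0683. Between the chow libraries, Slc25a35 and the acinar share were both higher in replicate 1. Across high-fat replicates 1, 2 and 3, Slc25a35 was at 5.99, 5.97 and 4.49 CPM. The acinar share there was 11.8%, 1.59% and 4.71%, and its part in the level of Slc25a35 was not tested. Slc25a35 overlaps Rangrf on the opposite strand, and 27.4% of its 31-base words also occur there when both strands are searched. Unless reads were assigned by strand, which the sources used here do not say, reads of the 2 genes cannot be fully separated. Rangrf was at 0.519, 0.466 and 0.801 CPM in high-fat libraries and 1.86 and 0.958 CPM in chow libraries (-0.57 ± 0.21, adjusted p = 0.0901). The other tested members of this group, Slc25a45, Slc25a46 and Slc25a53, had overlapping groups and fold changes of -0.28, -0.10 and -0.09. Slc25a46 acts in the outer mitochondrial membrane, where it takes part in fusion and fission.

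The 10 members that were not tested averaged under 0.5 CPM. They were Slc25a2, Slc25a18, Slc25a21, Slc25a31, Slc25a34, Slc25a41, Slc25a43, Slc25a47, Slc25a48 and Slc25a54. Slc25a54 was listed at 0 in high-fat replicate 3 and in chow replicate 3, Slc25a2 in chow replicate 3 and Slc25a41 in chow replicate 1. The highest single value among them was 0.851 CPM, for Slc25a34 in chow replicate 1. Slc25a48 was at 0.0844, 0.121 and 0.157 CPM in high-fat libraries and 0.532 and 0.304 CPM in chow libraries. Of these, 0.0844 CPM in high-fat replicate 1 is below what 3 reads are worth there (0.127 CPM). With no filter on low values, which takes in all 47 members, none of the 10 was called.

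Ratios between related carriers within a library do not depend on how libraries are scaled. The log2 ratio of Slc25a39 to Slc25a40 was 3.70, 3.75 and 3.74 in high-fat libraries, against 3.32 and 3.21 in chow libraries, a difference of 0.46. The ratio of Slc25a5 to Slc25a4 was 0.36, 0.15 and 0.33 in high-fat libraries and -0.09 and -0.14 in chow libraries, a difference of 0.39, within the doubt on Slc25a5 given above. Slc25a5 thus exceeded Slc25a4 in all 3 high-fat libraries and lay below it in both chow libraries, in CPM. Slc25a12 to Slc25a13 was 3.11, 3.28 and 3.66 in high-fat libraries and 2.42 and 2.80 in chow libraries, a difference of 0.74. Slc25a24 to Slc25a23 was -3.08, -3.01 and -3.51 in high-fat libraries and -2.51 and -2.77 in chow libraries, a difference of -0.56. The diets did not overlap in these 4 ratios (n = 3 high-fat, 2 chow). Slc25a28 to Slc25a37 was 0.73, 0.70 and 0.42 in high-fat libraries and 0.74 and 0.75 in chow libraries. That is a difference of -0.13, narrowly without overlap and with the lowest value in high-fat replicate 3. Slc25a33 to Slc25a36 differed by -0.19 with overlap, and that of Slc25a18 to Slc25a22, in which Slc25a18 is near the limit of detection, by 0.57 without overlap. For 3 libraries against 2 the smallest two-sided p of the exact permutation test is 0.2. It was 0.2 in 6 of the 7 ratios and 0.8 for Slc25a33 to Slc25a36 (adjusted over the 7 ratios, 0.233 and 0.8).

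**Figure D4:**
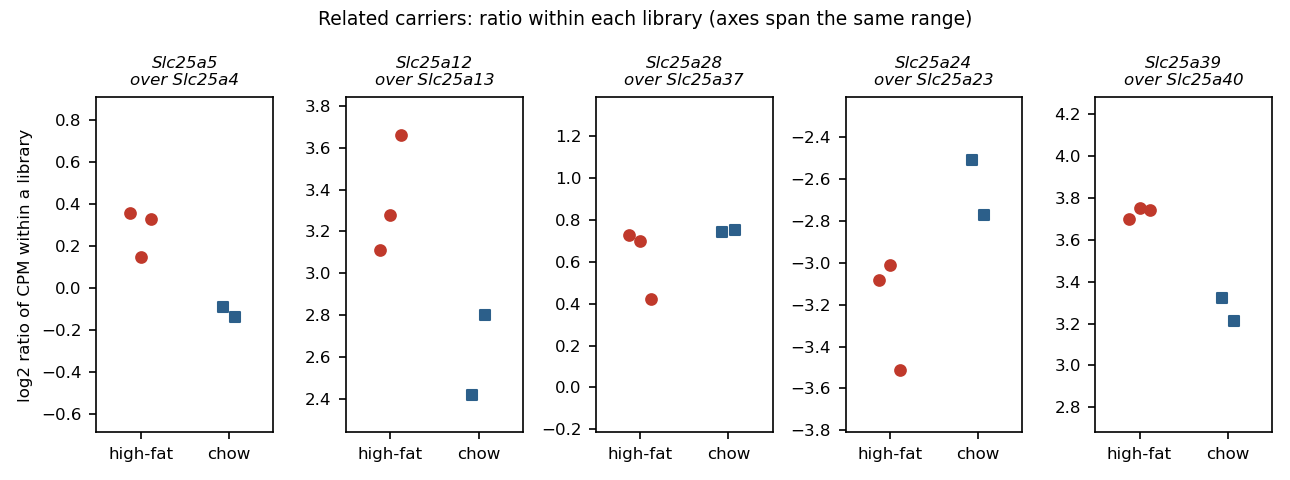
Log2 ratio of the CPM of related carriers within each library, with high-fat libraries as red circles and chow libraries as blue squares, in panels that span the same range. High-fat libraries lie above chow libraries for Slc25a5 over Slc25a4, Slc25a12 over Slc25a13 and Slc25a39 over Slc25a40. They lie below for Slc25a24 over Slc25a23 and, narrowly, for Slc25a28 over Slc25a37.

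SLC25 relatives named otherwise gave no call in limma in 3 tested genes, with 1 higher at an unadjusted p below 0.05. Over all 16939 tested genes 14.9% were called higher and 8.78% lower, and 4032 were higher and 2544 lower at that unadjusted p. Ucp2, the uncoupling protein of beta-cells, was at 208, 237 and 232 CPM in high-fat libraries and 186 and 197 CPM in chow libraries (0.23 ± 0.10, adjusted p = 0.133). Mtch1, an outer membrane member, was at 176, 186 and 197 CPM in high-fat libraries and 142 and 157 CPM in chow libraries (0.32 ± 0.10, adjusted p = 0.0544). Both had high-fat libraries above chow libraries, as 32.8% of all tested genes did, and Mtch2 had overlapping groups. Ucp1 and Ucp3 were too low to be tested.

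Of 20 other mitochondrial solute transporters tested, 2 were higher and 2 lower, where 14.9% and 8.78% of all tested genes were called. Both risers belong to the calcium uniporter. Smdt1, its essential small subunit EMRE, was at 34.4, 30.8 and 37.9 CPM in high-fat libraries and 18.6 and 21.3 CPM in chow libraries (0.75 ± 0.11, adjusted p = 0.00567). Mcu, the pore, was at 12.9, 14.2 and 12.3 CPM in high-fat libraries and 6.86 and 8.9 CPM in chow libraries (0.68 ± 0.14, adjusted p = 0.0156). Both sets of libraries stood apart without overlap. Mcu lost its call without high-fat replicate 2 (0.061) and without chow replicate 1 (0.0611), over a range of 0.00294 to 0.222, and Smdt1 kept its call in 16 of 17 alternatives. The exception was acinar- and insulin-free scaling, where Smdt1 stood at 0.30 (adjusted p = 0.0777) and Mcu at 0.25 (0.222). Mpc1, a subunit of the pyruvate carrier, was at 16.2, 14 and 15.1 CPM in high-fat libraries and 21.1 and 21.2 CPM in chow libraries (-0.46 ± 0.10, adjusted p = 0.0184), and Sfxn4, of the sideroflexin family, was at 0.97, 1.43 and 1.19 CPM in high-fat libraries and 2.18 and 3.02 CPM in chow libraries (-0.71 ± 0.18, adjusted p = 0.0314). Mpc1 lost its call without high-fat replicate 2 (0.0661) or 3 (0.06) and without chow replicate 1 (0.0603), over a range of 0.000849 to 0.101. Sfxn4 lost it without high-fat replicate 1 (0.0839), 2 (0.0621) or 3 (0.0868) and without chow replicate 3 (0.115), over a range of 0.00486 to 0.126.

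Of 11 tested genes that import carriers into the inner membrane, 3 were higher and 1 lower, against the same 14.9% and 8.78% of all tested genes. Tomm40, the pore of the outer membrane, was at 17.9, 20.2 and 19.2 CPM in high-fat libraries and 12.4 and 13.7 CPM in chow libraries (0.52 ± 0.10, adjusted p = 0.0141). The small chaperones Timm10 and Timm10b had fold changes of 0.67 ± 0.17 and 0.40 ± 0.10 (adjusted p = 0.0336 and 0.035), and under acinar- and insulin-free scaling Timm10b turned to -0.04 (0.817) and Tomm40 and Timm10 stood at 0.08 (0.643) and 0.32 (0.187). Tomm70a, the receptor for carrier precursors, fell by 0.29 ± 0.08 (adjusted p = 0.0469). Of 27 tested enzymes of the shuttles that the carriers serve, 1 was higher and 2 were lower, again beside 14.9% and 8.78%. Ass1, of the urea cycle and arginine synthesis, fell by 1.34 ± 0.21 (5.25, 4.54 and 7.76 CPM in high-fat libraries, 14.1 and 18.1 CPM in chow libraries, adjusted p = 0.00706) and kept its call in 17 of 17 alternatives. Crat, carnitine acetyltransferase, rose by 0.49 ± 0.11 (adjusted p = 0.0232; 0.05 and 0.726 under that scaling), and the malic enzyme Me1 fell by 0.34 ± 0.10 (adjusted p = 0.0415). Of these import and shuttle genes, Ass1 alone was called with each library left out. Timm10, Timm10b, Tomm70a and Crat were called in 1 of the 5 such fits, Tomm40 in 2 and Me1 in 0, with adjusted p over the 17 alternatives reaching 0.187, 0.817, 0.283, 0.726, 0.643 and 0.14, in that order.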

How the data were processed

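Gene expression was measured in 6 islet samples, 3 on a high-fat diet and 3 on chow, grouped by the diet given in the labels and numbered in deposit order. The authors' deposited table gives 1 value per gene name and sample with no unit in its header. Per the submitters' processing notes it came from Partek. For the version, aligner, genome build and counting rules nothing is stated in those notes. Each column has a lowest value of 1 and low values spaced by 1 step, so the deposited values were read as CPM plus 1, and 1 was subtracted. Between 64.6% and 70% of the values of at most 20 reads came within 0.1 of a whole read, so reads were not recovered. The step gave the implied depth.

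Names were matched in capitals to mouse symbols (46369 of 48321). GENCODE M21, which the authors may not have used, gave exonic lengths (the union of basic transcripts), GC content and 31-base words shared between genes. Promoter windows are from RefSeq, and motifs were searched on both strands. The diets were compared on log2(CPM + 1) by limma 3.58.1 (R 4.3.3, trended prior), in genes that averaged 0.5 CPM or more over 5 libraries, without the averaged chow column. Benjamini-Hochberg adjustment ran over all 16939 tested genes. Fold changes on this scale understate those of low genes. Ratios were compared by an exact two-sided permutation test. The fit was tested on simulated data.

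The members, lists and tests were chosen with earlier results of these data known. Values in every library are given for members past the threshold, the 8 most abundant members and 14 members of known metabolic role. Slc25a27, Slc25a30, Slc25a40, Slc25a42 and Slc25a48 were added after their values were seen. The values of 1 member, which stays in all counts, are not reported here. The 17 alternatives were other pseudocounts (0.5 and 2), filters (none and 1 CPM), scalings, an acinar covariate, all 6 columns, sample weights, no variance trend, removal of length and GC trends (mgcv 1.9.3) and leaving out each of the 5 libraries. The fit of all 6 columns counts the averaged chow column as a library, so its p-values are too small.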

Additional observations from a re-analysis of the deposited data

How the results depend on the processing

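The counts of called members, 5 higher and 3 lower with the deposited CPM, kept within 1.5 times under other pseudocounts, a filter at 1 CPM, median-ratio scaling (4 and 4) and upper-quartile scaling. With no filter, which tests 39352 genes, 1 member was higher and 0 lower (limma; 9 and 6 at an unadjusted p below 0.05), and 1080 and 573 of all genes. With library sizes that leave out acinar and insulin genes, 0 members were higher and 16 lower, and 804 and 6903 of all genes, of whose calls 10.4% were higher against 62.9% with the deposited CPM. With the acinar score as a covariate, 0 members were higher and 0 lower, and 1099 and 692 of all genes. With all 6 columns, 9 members were higher and 6 lower, and 4224 and 2828 of all genes. That fit counts the averaged chow column as a library, so these counts are inflated. Sample quality weights gave 3 higher and 3 lower members, where 12.2% of all genes were higher and 6.65% lower. A prior without trend gave 3 and 2 members, where 11.8% and 7.61% of all genes were called. Removal of length and GC trends, which tests 13704 protein-coding genes, gave 2 higher and 4 lower members. Of all those genes 1494 (10.9%) were higher and 1325 (9.67%) lower. Of the members' calls, 50% were higher under median-ratio scaling and 33.3% after removal of those trends, against 62.5% with the deposited CPM. Leaving out each library in turn gave 1 to 5 higher and 1 to 3 lower members, and 1167 to 2969 higher and 682 to 1415 lower genes in all, against 2524 and 1487. Leaving out chow replicate 3 gave 5 higher and 3 lower members, chow replicate 1 gave 2 and 1, high-fat replicate 1 or 2 gave 1 and 2, and high-fat replicate 3 gave 1 and 1. The fits without a chow replicate leave 1 chow library, which is assumed to vary like the others.

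Without acinar and insulin genes in the library size, fold changes turned to -0.15 for Slc25a1, -0.22 for Slc25a11, -0.14 for Slc25a12, -0.41 for Slc25a20, -0.31 for Slc25a22, -0.27 for Slc25a28, -0.32 for Slc25a3, -0.14 for Slc25a37, -0.38 for Slc25a39, -0.27 for Slc25a5 and -0.11 for Slc25a51, beside the shift of all genes to -0.34. Removal of length and GC trends turned Slc25a22 to -0.03, Slc25a39 to -0.04 and Slc25a36 to 0.03. Slc25a20, at 0.03, turned to -0.04 under median-ratio scaling, -0.04 without high-fat replicate 2 and -0.06 without chow replicate 3, and ran up to 0.12 with other libraries left out. The cause of these changes was not tested. With 1 library left out, the difference in log2 ratio ran from 0.41 to 0.51 for Slc25a39 to Slc25a40, 0.35 to 0.46 for Slc25a5 to Slc25a4, 0.55 to 0.93 for Slc25a12 to Slc25a13 and -0.69 to -0.41 for Slc25a24 to Slc25a23. It ran from -0.19 to -0.03 for Slc25a28 to Slc25a37, from 0.14 to 0.99 for Slc25a18 to Slc25a22 and changed sign, from -0.76 to 0.38, for Slc25a33 to Slc25a36. The counts of the other mitochondrial transporters ran from 0 to 5 higher and 0 to 12 lower over all alternatives. Those of the import genes ran from 0 to 4 and 0 to 3, and those of the shuttle enzymes from 0 to 3 and 1 to 18. The largest higher counts came with all 6 columns, where 25% of all tested genes were higher. The largest lower counts came with acinar- and insulin-free scaling, where 40.8% of all tested genes were lower. No paired analysis was possible because the labels give no numbers shared between the diets. Depth limits the 10 members under 0.5 CPM, and with 3 high-fat and 2 chow libraries small differences can be missed.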
